A study of Mus musculus with 15 samples.

Results

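The 31 transcripts described here belong to thymocytes and T cells, and they were followed through sorted dendritic cells of the mouse thymus. They were chosen by gene symbol from 22165 genes in a table of raw counts, and all 31 were present and passed the filter on low counts. They comprise the CD3 chains (Cd3e, Cd3d, Cd3g, Cd247), the coreceptors (Cd4, Cd8a, Cd8b1), receptor signalling genes (Lck, Zap70, Lat, Themis, Trat1, Skap1), surface proteins (Thy1, Cd2, Cd5, Cd6, Cd27, Cd28), genes of receptor rearrangement and of the pre-T cell receptor (Rag1, Rag2, Dntt, Ptcra), transcription and chromatin factors (Tcf7, Lef1, Bcl11b, Satb1, Gata3, Tox, Tcf12), and Arpp21. The study deleted Stk11, which encodes the kinase LKB1, and measured 3′-end RNA in 15 libraries. KO animals were Itgax-cre Stk11 fl/fl mice, in which the Itgax (CD11c) promoter drives the recombinase, and WT animals were the comparison. All were C57BL/6 mice of both sexes, 8 to 12 weeks old, and KO and WT alike carried a subcutaneous B16 melanoma secreting Flt3L, which increases dendritic cell numbers. Thymi were taken 9 to 12 days after injection and enriched on CD11c beads. Plasmacytoid cells (pDC) were sorted on Siglec-H and intermediate CD11c, and conventional cells on CD11c and MHC class II, with CD11b for cDC2 and CD8a for cDC1. There were 3 pDC KO, 3 pDC WT, 3 cDC2 KO, 2 cDC2 WT, 2 cDC1 KO and 2 cDC1 WT libraries. The labels do not say whether libraries of a group came from separate mice, so p-values measure the spread between these libraries, which may be technical.

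Developing T cells enter the thymus with neither CD4 nor CD8, pass through a stage with both, and leave with only CD4 or only CD8. RAG1 and RAG2 cut the receptor gene segments, the polymerase encoded by Dntt adds bases at the joints, and the pre-T alpha chain encoded by Ptcra pairs with the first rearranged receptor chain. The CD3 chains carry the signal of the assembled receptor into the cell, where LCK and ZAP70 phosphorylate targets that include the adaptor LAT. Several of these genes are also known from mouse dendritic cells: the CD8 alpha chain marks cDC1 of the thymus and spleen, CD4 is found on pDC, and the E proteins, of which Tcf12 encodes one (HEB), act in T cells and pDC. The CD3 genes are used as markers of T cells. In bulk libraries of sorted cells, fewer cells of a type and less RNA per cell cannot be told apart.

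E proteins bind the E box, CANNTG, and Tcf12 was among the members that were higher in pDC, so the 250 bases before the start of 4 members that build the receptor are shown with each E box in capitals. The sequences are from RefSeq on GRCm38.p6. Rag1 lies on chr2:101649533-101649782 (minus strand), Cd3g on chr9:44980432-44980681 (minus strand), Ptcra on chr17:46763713-46763962 (minus strand) and Dntt on chr19:41029025-41029274 (plus strand).
Rag1: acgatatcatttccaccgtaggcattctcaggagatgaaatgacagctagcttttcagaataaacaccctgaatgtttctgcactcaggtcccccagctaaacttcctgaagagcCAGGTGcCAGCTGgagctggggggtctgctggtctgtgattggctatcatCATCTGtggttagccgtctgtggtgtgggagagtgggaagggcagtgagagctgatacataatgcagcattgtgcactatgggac
Cd3g: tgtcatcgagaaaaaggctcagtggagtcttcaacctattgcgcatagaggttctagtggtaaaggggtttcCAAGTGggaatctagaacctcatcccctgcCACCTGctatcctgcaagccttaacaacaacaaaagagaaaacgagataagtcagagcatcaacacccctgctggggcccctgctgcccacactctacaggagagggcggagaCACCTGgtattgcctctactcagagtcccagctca
Ptcra: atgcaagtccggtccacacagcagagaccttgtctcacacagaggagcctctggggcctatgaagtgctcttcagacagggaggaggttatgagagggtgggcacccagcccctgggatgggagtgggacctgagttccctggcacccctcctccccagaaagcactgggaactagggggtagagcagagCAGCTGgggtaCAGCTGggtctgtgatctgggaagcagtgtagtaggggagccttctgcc
Dntt: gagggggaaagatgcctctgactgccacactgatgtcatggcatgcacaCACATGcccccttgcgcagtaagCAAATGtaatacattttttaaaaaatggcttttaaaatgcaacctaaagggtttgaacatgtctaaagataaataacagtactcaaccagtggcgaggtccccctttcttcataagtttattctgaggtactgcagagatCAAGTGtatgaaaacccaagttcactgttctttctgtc
Rag1, Cd3g and Dntt each hold 3 E boxes in this window and Ptcra holds 2. The window of Rag1 ends 31 bases before its GENCODE start and adjoins the start of the overlapping gene B230118H07Rik, while the other 3 windows adjoin the GENCODE start of their own gene. CANNTG reads as CANNTG on the opposite strand, so 1 search covers both strands, and no other motif was searched. RefSeq promoters were matched for 23 of the 31 members, and 18 of these 23 (78.3%) held at least 1 E box, against 66.2% of all 32851 promoters in the same table. At least 3 were found in 5 of the 23 (21.7%), against 12.2% of all promoters, and none in 5 of the 23. The 4 shown were picked for their role. Of the other CD3 and RAG genes, Rag2, Cd3e and Cd3d held 1 E box each and Cd247 held 2. Where a member had several promoters, only the first listed was counted, while the shares of all promoters count every entry. A match is a description of the letters in the window and not a binding site.

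Libraries held 3928164 to 12142712 counts. Summed pDC markers stood at 31800 to 43200 CPM (read counts scaled to each library's effective size) in pDC, against 760 to 1750 CPM in both conventional subsets. Summed cDC2 markers stood at 698 to 860 CPM in pDC, 845 to 1310 CPM in cDC2 and 339 to 469 CPM in cDC1, so that pDC and cDC2 overlapped. Singly, by edgeR, 6 of the 10 cDC2 markers were lower and 2 higher in pDC than in cDC2. Summed cDC1 markers stood at 6920 to 9470 CPM in pDC, 1960 to 3850 CPM in cDC2 and 6840 to 10800 CPM in cDC1, so that pDC and cDC1 overlapped. Of these 10 cDC1 markers, by edgeR, 8 were lower and 1, Irf8, higher in pDC than in cDC1, and 6 were lower in cDC2 than in cDC1. Batf3, Wdfy4, Itgae and Tlr3 overlapped between cDC2 and cDC1. Stk11 had 18.4 to 43.5 CPM in the 8 KO libraries and 34.2 to 66.8 CPM in the 7 WT libraries, and 3′ tags outside a deleted part do not check the deletion. At a common depth of 3928164 counts, 12430 to 12760 genes had a count in the 3 cDC2 KO libraries, against 10840 and 11359 in the 2 cDC2 WT libraries.

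The CD3 genes, which mark T cells, were present at low levels in all 3 subsets. The sum of Cd3e, Cd3d and Cd3g (the CD3 sum) rested on 73 to 345 counts per library. In pDC it was 36.1, 25.3 and 22.6 CPM in KO and 15.9, 33.3 and 36.4 CPM in WT. In cDC2 it was 18.5, 13.6 and 22.8 CPM in KO and 17.7 and 45.9 CPM in WT. In cDC1 it was 45.1 and 29.6 CPM in KO and 31.4 and 50.1 CPM in WT. The ranges of KO and WT overlapped in every subset, as did those of the subsets, with means of 28.3 CPM in pDC, 23.7 CPM in cDC2 and 39.1 CPM in cDC1. Library cDC2 WT 2 stood at 45.9 CPM, above the other 4 cDC2 libraries. Those 4, at 13.6 to 22.8 CPM, were below every cDC1 library, so the overlap of cDC2 with cDC1 rested on cDC2 WT 2 alone.

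Cd3g, the gamma chain, gave most of these counts. It had 21.0, 18.3 and 17.9 CPM in pDC KO, 9.51, 22.4 and 29.5 CPM in pDC WT, 15.3, 9.25 and 15.4 CPM in cDC2 KO, 13.4 and 34.3 CPM in cDC2 WT, 30.6 and 19.5 CPM in cDC1 KO, and 15.9 and 33.5 CPM in cDC1 WT. Cd3e, the epsilon chain, had 5.85, 0 and 1.05 CPM in pDC KO, 2.34, 6.32 and 4.42 CPM in pDC WT, 0.285, 2.23 and 3.78 CPM in cDC2 KO, 0 and 6.18 CPM in cDC2 WT, 7.33 and 4.08 CPM in cDC1 KO, and 6.57 and 7.83 CPM in cDC1 WT. Cd3e was thus at 0 in pDC KO 2 and cDC2 WT 1, while both libraries held Cd3g. Cd3d, the delta chain, had 9.30, 6.94 and 3.68 CPM in pDC KO, 4.04, 4.52 and 2.49 CPM in pDC WT, 3.0, 2.07 and 3.63 CPM in cDC2 KO, 4.37 and 5.42 CPM in cDC2 WT, 7.19 and 5.98 CPM in cDC1 KO, and 8.91 and 8.74 CPM in cDC1 WT. None of these 3 genes, nor Cd247, the zeta chain, passed the threshold by edgeR in any of the comparisons between subsets or genotypes. Every cDC2 library was nevertheless below every cDC1 library for Cd3d and for Cd247. Cd247 had 0.243 to 2.76 CPM in cDC2 and 2.92 to 4.92 CPM in cDC1. With limma voom, Cd3e was lower in pDC than in cDC1, at −2.30 on the log2 scale (adjusted p = 0.0299).

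**Figure D1:**
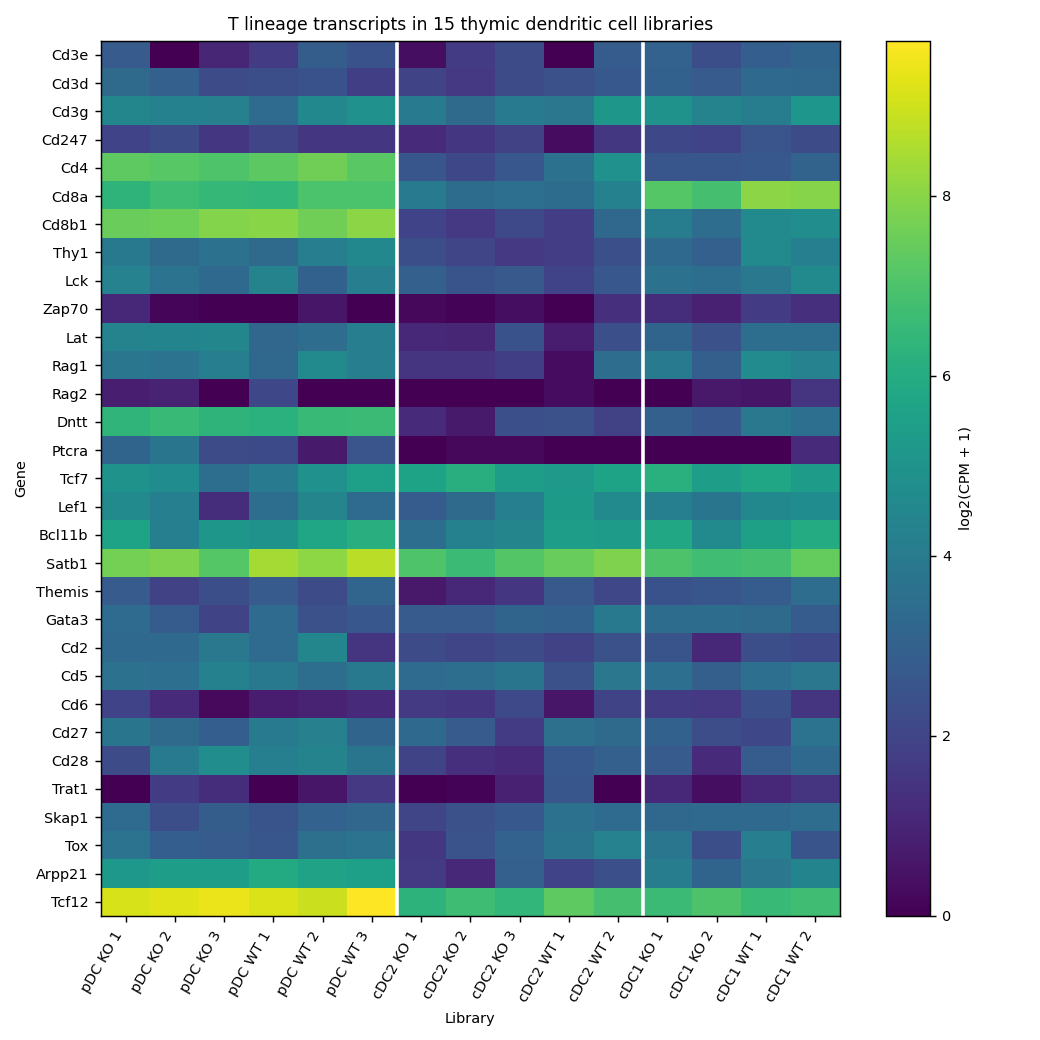
Level of each of the 31 transcripts (rows) in each of the 15 libraries (columns, grouped by subset with KO left of WT), as log2(CPM + 1) on a colour scale. Cd4, Cd8b1, Dntt and Tcf12 are bright in the 6 pDC libraries, while the CD3 sum overlaps between subsets, cDC2 with cDC1 through cDC2 WT 2 alone.

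Subset comparisons were tested over KO and WT libraries with equal weight. In pDC against cDC1, 9 of 31 members were higher and 2 lower in the edgeR quasi-likelihood fit (Benjamini-Hochberg adjusted p under 0.05 over 11746 genes), against 16.7% of all tested genes higher and 21.6% lower. The median log2 difference of the members was −0.04, beside −0.07 for all genes, and the 11 members called lay near the background of both directions together. In pDC against cDC2, 14 members were higher and 1 lower, against backgrounds of 17.7% and 20.6%, with a median of 0.75 beside 0 for all genes. In cDC2 against cDC1, no member was higher and 8 were lower, against backgrounds of 5.07% and 5.74%, with a median of −0.83 beside −0.05. Without Cd8a, on which cDC1 were sorted, 7 of 30 members were lower in cDC2 than in cDC1, and 9 were higher and 1 lower in pDC than in cDC1. The 16 members called by edgeR in no subset comparison were Cd3e, Cd3d, Cd3g, Cd247, Zap70, Rag2, Lef1, Bcl11b, Themis, Gata3, Cd5, Cd6, Cd27, Trat1, Skap1 and Tox.

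Of the coreceptors, Cd4 and Cd8b1 were higher in pDC than in both other subsets. Cd4 had 156, 145 and 131 CPM in pDC KO and 155, 194 and 151 CPM in pDC WT. In cDC2 it had 5.14, 3.35 and 5.23 CPM in KO and 11.7 and 29.1 CPM in WT. In cDC1 it had 5.10 and 5.10 CPM in KO and 5.39 and 7.46 CPM in WT. Every pDC library was above every library of the other 2 subsets, and cDC2 WT was above cDC2 KO without overlap. The log2 difference of Cd4 was 4.75 ± 0.30 (SE, edgeR, adjusted p = 1.25e-09) for pDC minus cDC1 and 4.0 ± 0.27 (adjusted p = 2.81e-09) for pDC minus cDC2. For cDC2 minus cDC1, Cd4 was not called by edgeR over both genotypes or in KO libraries alone. It was called higher in cDC2 in WT libraries alone (1.67, edgeR, adjusted p = 0.0173) and over both genotypes with DESeq2 (0.80, adjusted p = 0.0457).

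Cd8b1, the CD8 beta chain, had 182, 189 and 238 CPM in pDC KO and 252, 197 and 258 CPM in pDC WT. In cDC2 it had 2.85, 2.07 and 3.48 CPM in KO and 2.43 and 8.74 CPM in WT, and in cDC1 16.2 and 10.1 CPM in KO and 24.2 and 26.2 CPM in WT. No 2 of the subsets overlapped. The log2 difference was 5.77 ± 0.33 (edgeR, adjusted p = 4.79e-10) for pDC minus cDC2, 3.59 ± 0.30 (adjusted p = 4.22e-08) for pDC minus cDC1 and −2.18 ± 0.30 (adjusted p = 0.000168) for cDC2 minus cDC1. Without cDC2 WT 2 the first of these was 6.39 and the last was −2.81, and both were still called.

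Cd8a, the CD8 alpha chain, had 78.6, 102 and 87.2 CPM in pDC KO and 86.3, 125 and 125 CPM in pDC WT. In cDC2 it had 14.7, 9.97 and 10.6 CPM in KO and 9.71 and 18.1 CPM in WT, and in cDC1 141 and 114 CPM in KO and 259 and 250 CPM in WT. Since CD8a was used to sort cDC1, its level there is a description of the sort and not a result. The log2 difference for pDC minus cDC2, where neither population was sorted on it, was 2.96 ± 0.23 (edgeR, adjusted p = 1.73e-08). The 2 CD8 chains stood in different ratios, with 0.343 to 0.635 counts of Cd8a per count of Cd8b1 in pDC, 2.07 to 5.15 in cDC2 and 8.71 to 11.3 in cDC1. These ranges did not overlap, and the ratio is given to compare libraries, not the amounts of the 2 chains.

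Among the genes of receptor rearrangement, Dntt and Ptcra were higher in pDC than in both other subsets, and Rag1 than in cDC2. Dntt had 81.7, 95.4 and 79.9 CPM in pDC KO and 73.7, 92.2 and 97.6 CPM in pDC WT. In cDC2 it had 1.28, 0.638 and 4.21 CPM in KO and 4.37 and 2.71 CPM in WT, and in cDC1 6.93 and 5.25 CPM in KO and 13.8 and 10.7 CPM in WT. Every pDC library was above all others, and every cDC1 library was above every cDC2 library. The log2 difference was 5.05 ± 0.39 (edgeR, adjusted p = 1.33e-08) for pDC minus cDC2, 3.32 ± 0.37 (adjusted p = 1.19e-06) for pDC minus cDC1 and −1.73 ± 0.38 (adjusted p = 0.00693) for cDC2 minus cDC1.

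Rag1 had 13.2, 12.1 and 17.0 CPM in pDC KO and 8.46, 23.9 and 16.8 CPM in pDC WT. In cDC2 it had 1.85, 1.83 and 2.47 CPM in KO and 0.243 and 10.1 CPM in WT, and in cDC1 14.9 and 6.71 CPM in KO and 25.1 and 18.7 CPM in WT. The pDC and cDC1 libraries overlapped, and cDC2 WT 2 was the only cDC2 library above 2.47 CPM. The log2 difference was 2.19 ± 0.51 (edgeR, adjusted p = 0.00247) for pDC minus cDC2, −0.02 ± 0.49 (adjusted p = 0.983) for pDC minus cDC1 and −2.21 ± 0.54 (adjusted p = 0.0141) for cDC2 minus cDC1. Without cDC2 WT 2 the first was 4.37 and the last −4.40, and the last lost its call without cDC1 KO 1 or cDC1 WT 1. The annotation places B230118H07Rik over the whole of Rag1 on the same strand, with 5.99 to 22.4 CPM of its own, so the split of reads between the 2 genes is uncertain.

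Rag2 was near 0 throughout, with at most 3.26 CPM and no count in 8 libraries. Ptcra had 7.80, 12.9 and 3.85 CPM in pDC KO and 3.52, 0.645 and 4.99 CPM in pDC WT, against at most 0.16 CPM in cDC2 and a single library above 0 in cDC1, cDC1 WT 2 at 1.27 CPM. Its log2 difference was 6.73 ± 1.26 (edgeR, adjusted p = 0.000493) for pDC minus cDC2 and 5.51 ± 1.23 (adjusted p = 0.00212) for pDC minus cDC1, and the difference from cDC1 was 8.16 without cDC1 WT 2. These fitted differences rest on groups at or near 0 counts and depend on the prior count, so they are no measure of size.

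Tcf12 had 554, 611 and 692 CPM in pDC KO and 584, 486 and 844 CPM in pDC WT. In cDC2 it had 76.2, 104 and 84.9 CPM in KO and 157 and 116 CPM in WT, and in cDC1 98.6 and 128 CPM in KO and 95.7 and 107 CPM in WT. The log2 difference was 2.55 ± 0.22 (edgeR, adjusted p = 5.66e-08) for pDC minus cDC1 and 2.52 ± 0.21 (adjusted p = 2.87e-08) for pDC minus cDC2, while cDC2 minus cDC1 was 0.04 ± 0.21 (adjusted p = 0.950). Satb1, which encodes a chromatin organiser of thymocytes, was also higher in pDC, by 1.0 ± 0.22 on the log2 scale against cDC1 (adjusted p = 0.00156) and by 0.71 ± 0.21 against cDC2 (adjusted p = 0.0103), the second of which lost its call without cDC2 WT 1. Tcf7, which encodes the T cell factor TCF1, ran the other way. It had 29.8, 25.8 and 10.3 CPM in pDC KO, 15.1, 29.5 and 44.4 CPM in pDC WT, 48.8, 66.6 and 41.5 CPM in cDC2 KO, 36.9 and 48.5 CPM in cDC2 WT, 70.8 and 42.3 CPM in cDC1 KO, and 52.5 and 40.6 CPM in cDC1 WT. Its log2 difference was −1.0 ± 0.32 (edgeR, adjusted p = 0.0176) for pDC minus cDC1 and −0.89 ± 0.30 (adjusted p = 0.0268) for pDC minus cDC2, and leaving out single libraries gave −1.17 to −0.80 and −1.08 to −0.72. The call against cDC1 was lost without cDC1 KO 1 or cDC1 WT 1, and that against cDC2 without pDC KO 3, pDC WT 1, cDC2 KO 2 or cDC2 WT 2.

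Thy1, a surface glycoprotein of T cells, had 14.1, 9.16 and 11.7 CPM in pDC KO, 9.38, 17.0 and 22.3 CPM in pDC WT, 3.99, 3.11 and 2.03 CPM in cDC2 KO, 2.43 and 4.22 CPM in cDC2 WT, 8.90 and 7.0 CPM in cDC1 KO, and 23.7 and 17.1 CPM in cDC1 WT. The 5 cDC2 libraries were the lowest, with a log2 difference of −1.98 ± 0.36 for cDC2 minus cDC1 (edgeR, adjusted p = 0.00192) and 2.09 ± 0.34 for pDC minus cDC2 (adjusted p = 9.54e-05). Arpp21, a cAMP-regulated phosphoprotein gene, had 35.7, 41.2 and 42.9 CPM in pDC KO, 60.8, 48.0 and 43.9 CPM in pDC WT, 2.14, 1.20 and 6.97 CPM in cDC2 KO, 2.91 and 4.22 CPM in cDC2 WT, 16.0 and 7.88 CPM in cDC1 KO, and 13.4 and 20.0 CPM in cDC1 WT. It was called in all 3 comparisons, at 3.69 ± 0.40 for pDC minus cDC2, 1.67 ± 0.38 for pDC minus cDC1 and −2.02 ± 0.40 for cDC2 minus cDC1. Of the remaining calls, Lck and Lat were lower in cDC2 than in cDC1 and higher in pDC than in cDC2, and Cd28 and Cd2 were higher in pDC than in both. Leaving out single libraries gave −2.64 to −1.39 for Lat in cDC2 minus cDC1, with −2.64 without cDC2 WT 2, and the call was lost without cDC2 KO 1, cDC2 KO 2, cDC2 WT 1, cDC1 KO 1, cDC1 WT 1 or cDC1 WT 2. For pDC minus cDC2, Lat was 3.59 without cDC2 WT 2. Lck lost its call for cDC2 minus cDC1 without cDC1 WT 2. Cd2 lost its call against cDC1 without pDC WT 2, cDC1 KO 2, cDC1 WT 1 or cDC1 WT 2 and was 2.34 without cDC1 KO 1, and against cDC2 it lost it without pDC WT 2, cDC2 KO 2 or cDC2 WT 1. Cd28 lost its call against cDC1 without pDC KO 3, cDC1 KO 2 or cDC1 WT 1, was 2.31 without cDC1 KO 1, and kept its call against cDC2 with each library left out.

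**Figure D2:**
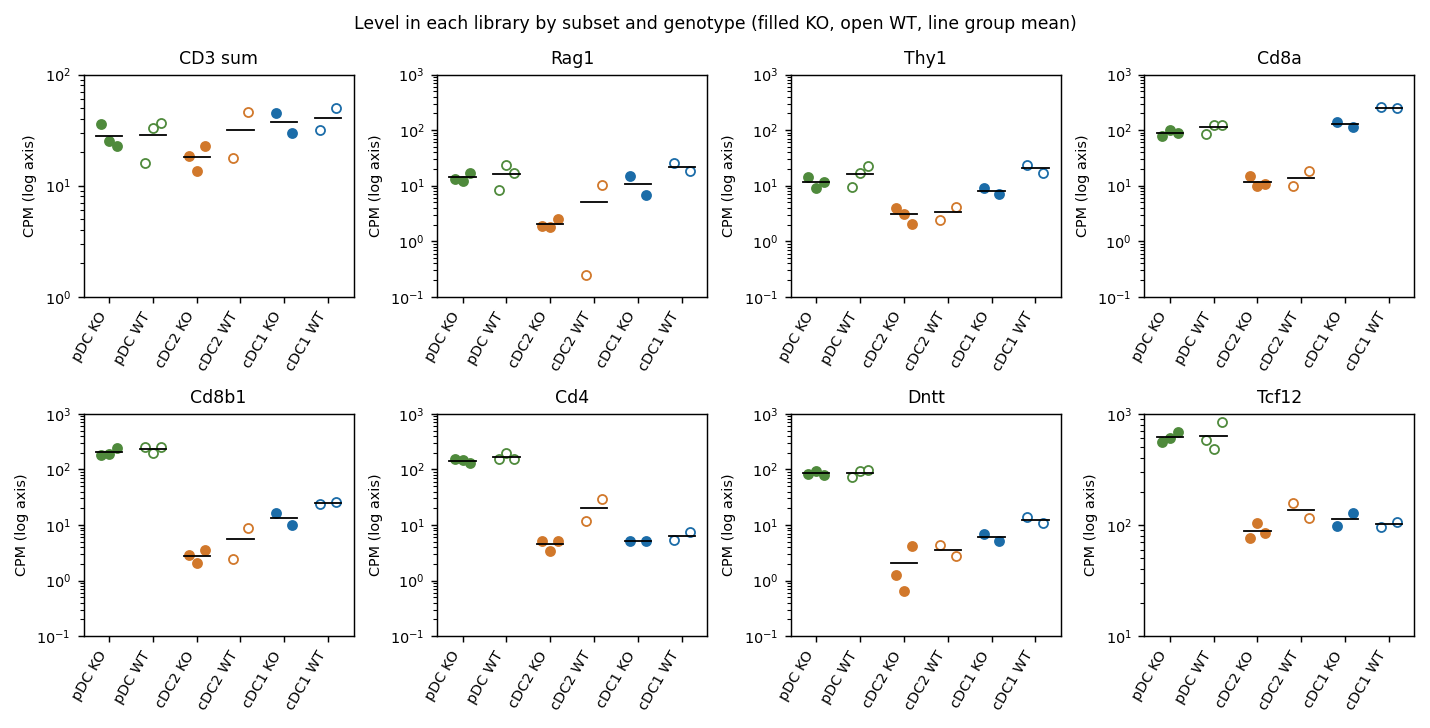
CPM on log axes in each library for the CD3 sum, Rag1, Thy1, Cd8a, Cd8b1, Cd4, Dntt and Tcf12, by subset and genotype (filled KO, open WT, line at the group mean). The CD3 sum spans 13.6 to 50.1 CPM over all libraries with every subset overlapping, cDC2 with cDC1 through cDC2 WT 2 alone. Cd4 lies between 131 and 194 CPM in pDC and at most 29.1 CPM elsewhere.

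With the CD3 genes as markers of T cells, each of the other 28 members was set against the CD3 sum of its own library, as counts per 100 CD3 counts. Between pDC and cDC1, 6 of 28 ratios did not overlap, with pDC above cDC1 for Cd4, Cd8b1, Dntt, Satb1, Arpp21 and Tcf12, beside 14.1% of all tested genes other than the CD3 genes above and 7.12% below. Between pDC and cDC2, 10 did not overlap, all with pDC above, beside 4.25% of genes above and 8.28% below. They were Cd4, Cd8a, Cd8b1, Thy1, Lat, Rag1, Dntt, Ptcra, Arpp21 and Tcf12. Between cDC2 and cDC1, Cd4 and Satb1 were above in cDC2, and Cd8a, Cd8b1 and Rag1 were below, beside 10.5% of genes above and 0.749% below. No test was run on these ratios, which share the CD3 sum of a library.

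Cd4 had 416 to 975 counts per 100 CD3 counts in pDC, 22.9 to 65.8 in cDC2 and 11.3 to 17.2 in cDC1. Cd8b1 had 505 to 1580 in pDC, 13.7 to 19.0 in cDC2 and 34.0 to 76.9 in cDC1. Dntt had 226 to 464 in pDC, 4.71 to 24.7 in cDC2 and 15.4 to 44.0 in cDC1. By contrast, Bcl11b, which keeps developing cells in the T lineage, had 67.6 to 190 in pDC, 55.4 to 238 in cDC2 and 78.8 to 145 in cDC1. Themis, which tunes receptor signals in thymocytes, had 10.4 to 37.7 in pDC, 3.08 to 31.5 in cDC2 and 9.86 to 20.0 in cDC1. The ratios of Bcl11b and Themis overlapped in all 3 subsets.

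**Figure D3:**
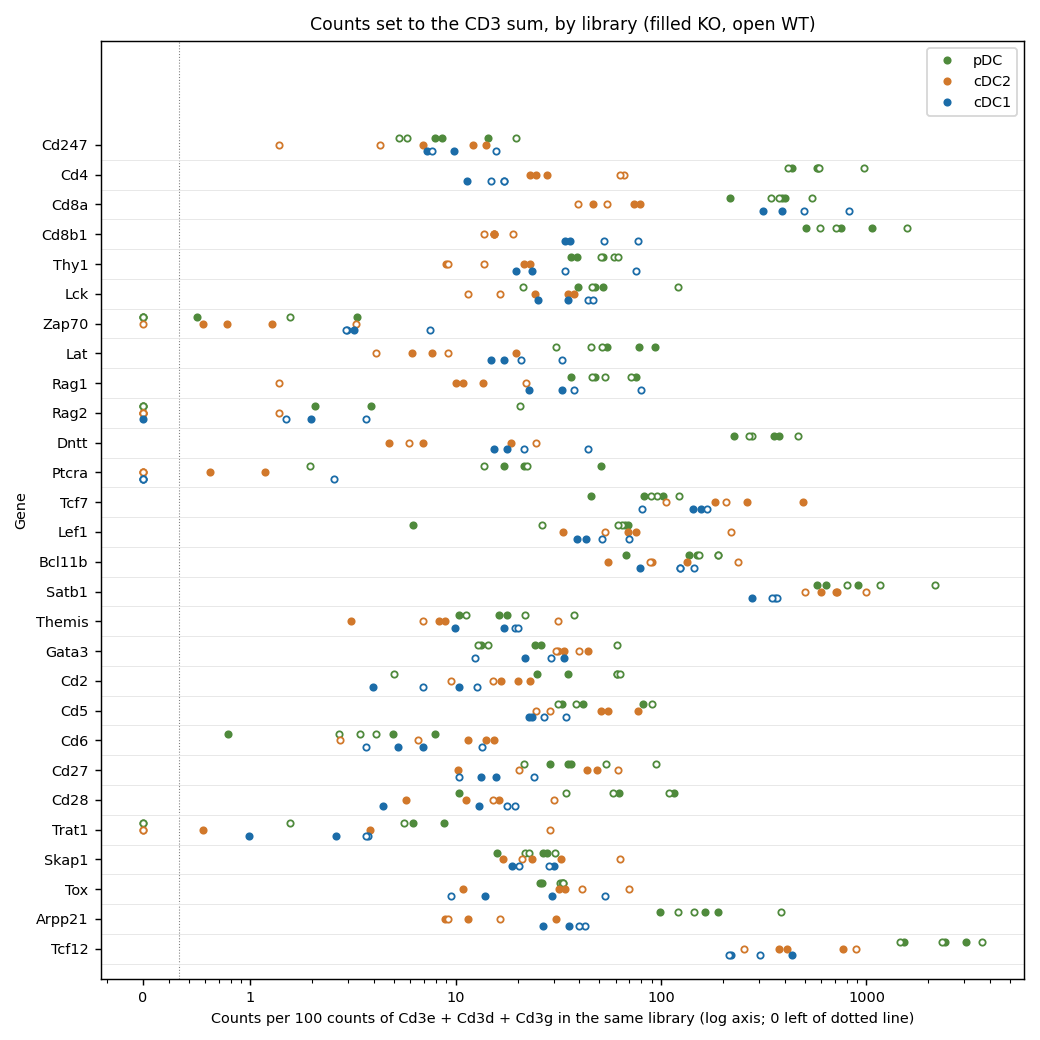
Counts of each of the other 28 transcripts per 100 CD3 counts of the same library (log axis), with 1 point per library coloured by subset. Cd4, Cd8b1, Dntt and Tcf12 lie further right in pDC, while Bcl11b, Themis and Skap1 overlap.

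In KO against WT, 1 member passed the test in 1 subset, Cd4 in cDC2, although most members lay lower in KO. In pDC no member was called, against 0.0681% of all tested genes, and 1 member, beside 10.6% of all genes, had an unadjusted p under 0.05 by edgeR. In pDC 22 of 31 differences were below 0, beside 49.5% of all genes, with a median of −0.12 for the members and 0 for all genes. In cDC2 Cd4 fell in KO, 1 of 31 members, against 0.119% of all genes called in either direction and 0.0341% lower. There 10 members, all lower, had an unadjusted p under 0.05 by edgeR. Of all 11746 genes, 13.3% had such a p in either direction, 1112 higher and 452 lower. In cDC2 25 of 31 differences were below 0, beside 44.7% of all genes, with a median of −0.77 for the members and 0.09 for all genes. In cDC1 no member was called, against 0.0255% of all genes, and 4 lay lower at an unadjusted p under 0.05 by edgeR. Of all genes, 3.83% had such a p in either direction, 357 higher and 93 lower. In cDC1 27 of 31 differences were below 0, beside 49.5% of all genes, with a median of −0.49 beside 0. Averaged over the 3 subsets no member was called, against 0.306% of all genes, and 10 lay lower at an unadjusted p under 0.05 by edgeR. Of all genes, 10.2% had such a p in either direction, 806 higher and 392 lower. For this average 28 differences of members were below 0, beside 43.8% of all genes.

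Cd4 averaged 4.57 ± 1.06 CPM in cDC2 KO (SD, n = 3) and 20.4 ± 12.3 CPM in cDC2 WT (SD, n = 2). Its log2 difference was −2.18 ± 0.36 (SE, edgeR, adjusted p = 0.0323). The call was lost without cDC2 KO 1, 2 or 3 (adjusted p = 0.0789, 0.138 and 0.0891 by edgeR) and without cDC2 WT 2, where the difference was −1.35 (adjusted p = 0.115). It was also lost with the replicate number as a block, with limma voom (−2.25, adjusted p = 0.118) and with edgeR on only the groups of the comparison (−2.23, adjusted p = 0.204). In pDC the difference of Cd4 was −0.21 ± 0.30 (adjusted p = 0.878) and in cDC1 −0.34 ± 0.42 (adjusted p = 1). The test of the difference between these effects did not pass by edgeR, at 1.97 ± 0.46 for pDC minus cDC2 (adjusted p = 0.346, and 2.09 with an adjusted p = 0.0192 by DESeq2) and −1.84 ± 0.55 for cDC2 minus cDC1 (adjusted p = 0.407). No member passed by edgeR in any of the 3 tests between subsets, against 0%, 0% and 0.00851% of all 11746 genes for pDC minus cDC2, pDC minus cDC1 and cDC2 minus cDC1, and by edgeR 1, 1 and 2 members had an unadjusted p under 0.05 in the same order, beside 8.41%, 8.26% and 8.46% of all genes.

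In cDC2 the members were grouped by which WT libraries lay above every KO library. Both cDC2 WT libraries were above every cDC2 KO library for 11 of 31 members: Cd3d, Cd4, Lef1, Bcl11b, Satb1, Themis, Cd27, Cd28, Skap1, Tox and Tcf12. That is 35.5% of the members, beside 11.7% of all tested genes, and no member had every KO library above WT, beside 23.1% of all genes. For 10 more, Cd3e, Cd3g, Cd8a, Cd8b1, Thy1, Zap70, Rag1, Gata3, Cd2 and Cd5, only cDC2 WT 2 was above every KO library. For 3, Rag2, Dntt and Trat1, only cDC2 WT 1 was, and for 7 neither was. The share of all genes was not counted for the patterns of a single WT library or of neither. Bcl11b had 10.3, 18.1 and 20.6 CPM in cDC2 KO, against 42.2 and 40.7 CPM in cDC2 WT. The CD3 sums of these 2 WT libraries were 17.7 and 45.9 CPM. Among the same 11 members, Cd4 (11.7 and 29.1 CPM) and Tox (12.4 and 18.8 CPM) were higher in cDC2 WT 2. Lef1 (38.6 and 24.4 CPM) and Tcf12 (157 and 116 CPM) were higher in cDC2 WT 1. The relation of these levels to the CD3 sum was not tested. The log2 difference of Bcl11b was −1.34 ± 0.46 (edgeR, adjusted p = 0.237). Without cDC2 WT 2 the median over the 31 members was 0.00, and without cDC2 KO 3 it was −1.15. The number of genes at a common depth was higher in cDC2 KO, at 12430 to 12760, against 10840 and 11359 in cDC2 WT. The 10 pDC markers summed to 1040 to 1090 CPM in cDC2 KO, with Klk1 at 0, and to 1380 and 1750 CPM in cDC2 WT, with none at 0. Their differences of KO minus WT were above 0 for 4 and below 0 for 6. Macrophage markers summed to 147 to 179 CPM in cDC2 KO, with Marco at 0, and to 78.7 and 109 CPM in cDC2 WT, with Marco at 0. Among the 8 tested macrophage markers, 4 differences were above 0 and 4 below, with a median of −0.14. Ribosomal protein genes took 4.98% to 5.86% of counts in cDC2 KO, against 3.99% and 4.03% in cDC2 WT. The 10 cDC2 markers, none of them at 0, summed to 1040 to 1310 CPM in cDC2 KO and to 845 and 975 CPM in cDC2 WT. Of their differences, 5 were above 0 and 5 below. The part of these measures in the differences of the members was not tested.

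In cDC1, 16 of 31 members (51.6%) had both KO libraries below both WT libraries, beside 17.8% of all tested genes, and Gata3 had both above, beside 19.3%. The 16 were Cd3d, Cd247, Cd4, Cd8a, Cd8b1, Thy1, Lck, Zap70, Lat, Rag1, Dntt, Lef1, Themis, Cd5, Cd28 and Skap1. The difference of Cd8a was −0.99 ± 0.34 (128 CPM in KO and 254 CPM in WT, edgeR, adjusted p = 0.981) and that of Thy1 −1.36 ± 0.52 (7.95 CPM in KO and 20.4 CPM in WT, adjusted p = 1). Ptcra had no count in cDC1 KO and 7 in cDC1 WT, at least 3.47-fold lower against a floor of 3 counts over the group, with all 7 counts in 1 library. The CD3 sum averaged 37.4 ± 11 CPM in cDC1 KO and 40.7 ± 13.2 CPM in cDC1 WT (SD, n = 2 each). The 10 cDC1 markers, none of them at 0, summed to 6840 and 8030 CPM in cDC1 KO and 10100 and 10800 CPM in cDC1 WT, with 8 of the 10 differences below 0 and 2 above. B cell markers summed to 23.6 and 32.8 CPM in cDC1 KO and 45.3 and 55.9 CPM in cDC1 WT, and macrophage markers to 94.1 and 98.2 CPM in cDC1 KO and 80.2 and 85.4 CPM in cDC1 WT. Among the 6 tested B cell markers, 2 differences were above 0 and 4 below. Among the 8 tested macrophage markers, 3 were above 0 and 5 below. The part of these markers in the differences was not tested. Without cDC1 KO 1 the median over the members was −0.96.

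In pDC, Satb1 and Arpp21 had every KO library below every WT library, 2 of 31 members (6.45%) beside 5.58% of all genes, and Lat had every KO library above, beside 5.76%. Satb1 had 207, 229 and 143 CPM in pDC KO, against 341, 269 and 422 CPM in pDC WT. It had 131, 97.0 and 137 CPM in cDC2 KO, against 176 and 230 CPM in cDC2 WT, and 126 and 106 CPM in cDC1 KO, against 115 and 173 CPM in cDC1 WT. Its groups overlapped in cDC1 only. The log2 difference was −0.83 ± 0.27 in pDC (edgeR, adjusted p = 0.324), −0.74 ± 0.30 in cDC2 (adjusted p = 0.294) and −0.31 ± 0.33 in cDC1 (adjusted p = 1). Averaged over the subsets it was −0.63 ± 0.17 (adjusted p = 0.193), and that of Cd4 was −0.91 ± 0.21 (adjusted p = 0.0872), which passed without cDC2 WT 1 at −1.07 (adjusted p = 0.0334). Cd3d, with the next smallest p in pDC, averaged 6.64 CPM in KO and 3.68 CPM in WT, at 0.85 ± 0.53 (adjusted p = 0.601).

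**Figure D4:**
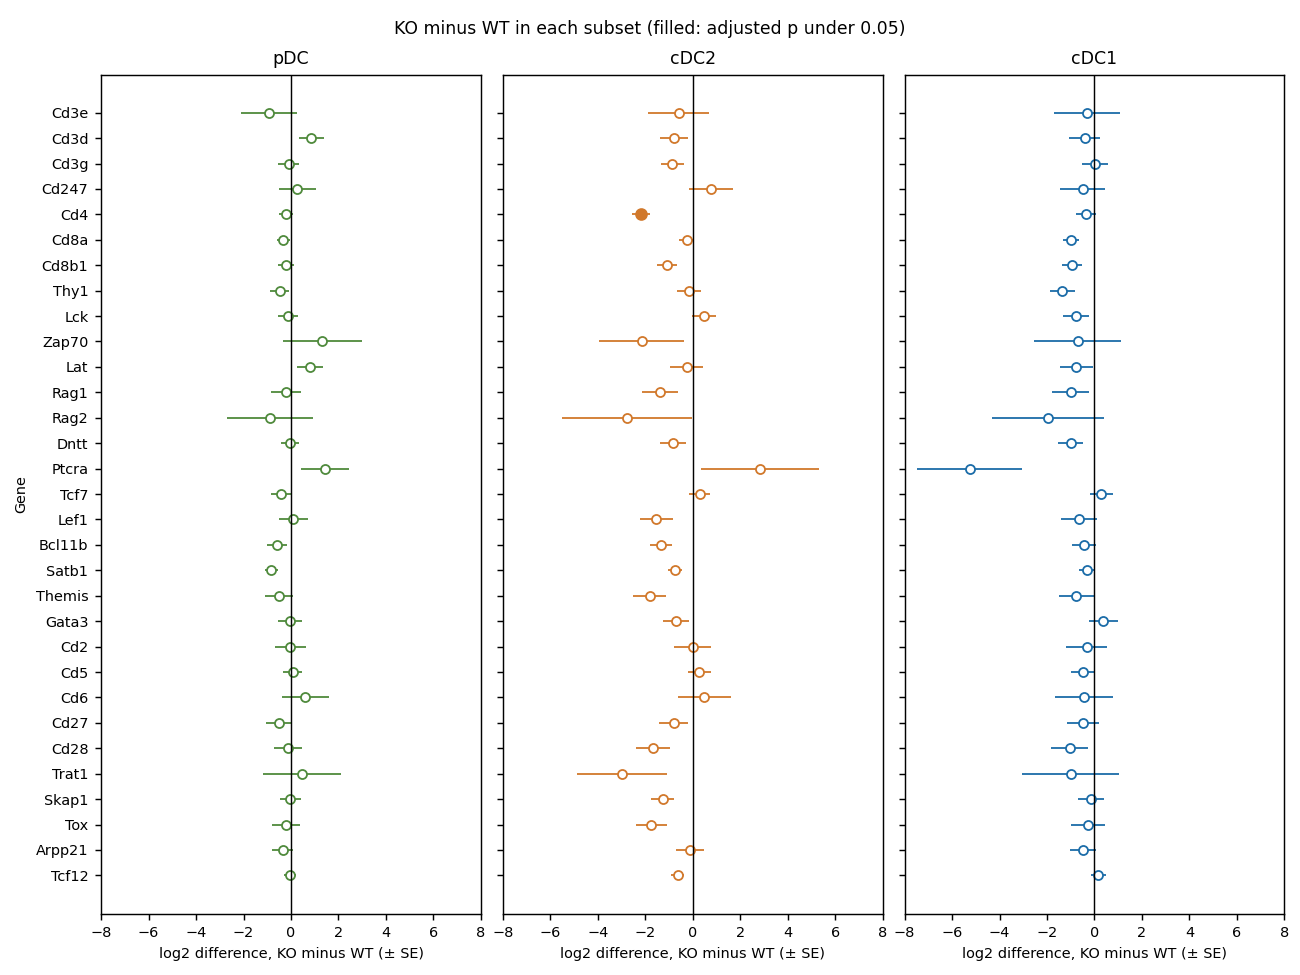
Log2 difference of KO minus WT for each of the 31 transcripts in each subset, with its standard error (edgeR). Of the differences 22, 25 and 27 of 31 are below 0 in pDC, cDC2 and cDC1, and only Cd4 in cDC2 passed the threshold.

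Of 19 tested T cell receptor signalling genes outside the members, none was called in KO against WT in any subset, with 2 higher and 1 lower at an unadjusted p under 0.05 by edgeR in pDC, 3 and 3 in cDC2, and 2 and 0 in cDC1. Of 26 tested thymocyte development genes, none was called either, with 1 higher and 2 lower at that p in pDC, 1 and 5 in cDC2, and 0 and 0 in cDC1. Of all 11746 genes, 597 were higher and 648 lower at that p in pDC, 1112 and 452 in cDC2, and 357 and 93 in cDC1. For pDC minus cDC1, 6 of the 19 receptor signalling genes were higher and 4 lower, beside 16.7% and 21.6% of all genes, led by Ptpn22, a phosphatase that restrains receptor signals, at −4.37 ± 0.25, Sla2, a signalling adaptor, at 4.93 ± 0.34, and Fyn, a Src family kinase, at 2.79 ± 0.22. For pDC minus cDC2, 5 were higher and 5 lower, beside 17.7% and 20.6% of all genes, and for cDC2 minus cDC1, Sla was higher and Sla2 lower, beside 5.07% and 5.74%. Of the 26 development genes, 9 were higher and 7 lower for pDC minus cDC1, beside 16.7% and 21.6% of all genes. Among them, Il7r, the interleukin-7 receptor, was at 4.10 ± 0.26 and Ccr9, a chemokine receptor of thymus homing, at 5.49 ± 0.42. Kit, a receptor of early progenitors, was at −3.08 ± 0.28. For pDC minus cDC2, 12 were higher and 7 lower, beside 17.7% and 20.6%. For cDC2 minus cDC1, 2 were higher and 4 lower, beside 5.07% and 5.74%.

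Lists of markers of other cells were measured alongside. Natural killer markers summed to 165 to 250 CPM in pDC KO, 164 to 189 CPM in pDC WT, 252 to 355 CPM in cDC2 KO, 295 to 316 CPM in cDC2 WT, 171 to 176 CPM in cDC1 KO and 113 to 155 CPM in cDC1 WT, with Ncr1, Klrb1c and Gzmb at 0 in all pDC. Klrd1 and Klrk1 gave most of these sums, with Klrd1 at 150 to 172 CPM in pDC WT and Klrk1 at 72.2 to 129 CPM in cDC1 WT. The other natural killer markers had at most 13.3 CPM. B cell markers summed to 258 to 483 CPM in pDC, mostly from Fcrla at 230 to 469 CPM, and to 14.2 to 27.0 CPM in cDC2 and 23.6 to 55.9 CPM in cDC1, with Cd79a at 0 in all pDC. Macrophage markers summed to 97.7 to 156, 78.7 to 179 and 80.2 to 98.2 CPM in pDC, cDC2 and cDC1, and monocyte and neutrophil markers to 792 to 1450, 482 to 1340 and 289 to 638 CPM. Thymic epithelium markers summed to 24.3 to 46.1, 107 to 319 and 64.9 to 130 CPM, and erythroid markers to at most 42.2 CPM in any library. Epcam and Ly75 gave most of the epithelium sums, with Epcam at 87.4 to 250 CPM in cDC2 WT and Ly75 at 62.4 to 110 CPM in cDC1 WT. The other epithelium markers had at most 4.06 CPM. Ccr2, Ly6c2 and Lyz2 gave most of the monocyte and neutrophil sums, and the other markers of that list had at most 10.7 CPM. Foxp3, which marks regulatory T cells, had no count in pDC. The part of these markers in the differences above was not tested.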

How the data were processed

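The authors deposited raw read counts per gene for 15 libraries, per the labels made as strand-specific 3′ libraries from oligo-dT primers and amplified by PCR. STAR, HTSeq, DESeq2 and the build mm10 are listed in the submitters' processing notes, without role or version. Counts were checked to be whole numbers. Gene symbols came from GENCODE M21 (GRCm38) and, for genes absent there, from a list of gene names. Together these gave a symbol to 21745 of 22165 genes. Coordinates came from GENCODE M21. With edgeR 4.0.16 in R 4.3.3, filterByExpr on the 6 groups kept 11746 genes (0.0538% of counts left out). TMM factors ran from 0.841 to 1.08, and CPM are counts scaled to that effective library size. A robust quasi-likelihood model with 1 coefficient per group was fitted to all 15 libraries, and was tested on simulated data. Two-sided p-values were adjusted (Benjamini-Hochberg) across the 11746 genes and called under 0.05. Alternatives were RLE scaling, DESeq2 1.42.0, limma 3.58.1 voom, no filter, a replicate block, only the groups compared, 1 genotype only, and each library left out. The groups of 2 libraries rest on the pooled spread.

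The members and lists were chosen with earlier results of these data known. Per-library values are given for members past the threshold in KO against WT, for the 2 smallest p-values of each such comparison, for 8 genes whatever their values (Cd3e, Cd3d, Cd3g, Cd8b1, Rag1, Cd4, Cd8a, Dntt), and for up to 4 members per direction in each subset comparison. Counts are reads without molecular identifiers named in the labels.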

Additional observations from a re-analysis of the deposited data

How the results depend on the processing

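Over all comparisons, edgeR made 35 calls of members. With each library left out they gave 525 values, of which 30 lost the call, and under the other settings 278 values, of which 33 lost it, and none of these values reversed. Members not called by edgeR gained a call 6 times with a library left out and 18 times under other settings, among them Themis for cDC2 minus cDC1 with DESeq2, limma voom and only the groups of the comparison. The count of members called for KO minus WT in cDC2 was 1, and it was 2 without the filter on low counts, 0 with limma voom, 0 with only the groups of the comparison, and 0 to 1 with each library left out. For the average of the 3 subsets it was 0, and it was 2 with DESeq2 (Cd4 at −0.96, adjusted p = 0.00445, and Satb1 at −0.67, adjusted p = 0.0205), 2 without the filter, and 0 to 1 with each library left out. For the KO effect in pDC minus that in cDC2 it was 0, and 1 with DESeq2 or without the filter. For cDC2 minus cDC1 it was 8, and 2 in KO libraries alone, and for pDC minus cDC1 it was 11, and 7 in WT libraries alone or in KO libraries alone, which hold fewer samples. With the replicate number as a block, the count in cDC2 for KO minus WT was 0, with Cd4 at −2.10 (adjusted p = 0.0539), and Tcf7 lost both calls and Cd28 the one for pDC minus cDC1. Deviations of same-numbered KO and WT libraries within a subset correlated at −0.189 to 0.112. Same-numbered libraries of different subsets were not compared, so whether the numbers pair those is unknown. With the numbers of the cDC1 KO libraries exchanged, an alternative chosen after seeing the data, 0 members were called for KO minus WT in cDC1. For the KO effect in pDC minus that in cDC2, the median of all genes was −0.029 with RLE scaling, against −0.135 with TMM, and 0 genes were called with either. The cause of the changes between settings was not tested. Counts of 73 to 345 behind the CD3 sum limit its precision, and Zap70, Rag2, Trat1 and Ptcra rest on few counts.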
